A study of Xenopus laevis with 12 samples.

Results

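The genes described here move sodium, chloride, protons and bicarbonate across cell membranes. They were chosen by name from the 44478 genes of the count table: the SLC4, SLC26 and SLC9 carrier families, carbonic anhydrases, the alpha and beta subunits of the Na,K-ATPase and H,K-ATPase, the epithelial sodium channel (ENaC), CFTR, the CLC chloride channels and exchangers, ano1, and the FXYD regulators of the sodium pump. The rule took 120 genes and used no measured value. Xenopus laevis is allotetraploid, so most genes exist as a pair of homeologs, which carry the suffix .L or .S. RNA was sequenced from pools of whole bots of 3 types, with 4 pools of each. Biobots (BB1 to BB4) are wild-type animal caps cut from Nieuwkoop and Faber stage 9 embryos, which heal into ciliated balls of epidermis. Neurobots (NB1 to NB4) are such caps closed around clumps of animal cap cells that had been kept apart for hours after dissociation and so take a neural fate. Sham neurobots (SH1 to SH4) received clumps that were reaggregated soon after dissociation. No drug or transgene was given for these RNA pools, the implanted cells came from many pooled embryos, and the age of the bots at collection is not given in the sources used here. The question is how the ion transport genes of the epidermis and those of neural tissue differ between the 3 types.

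Ionocytes are the transport cells of amphibian skin. They are packed with mitochondria and a vacuolar proton pump, carbonic anhydrase makes protons and bicarbonate from carbon dioxide and water inside them, and in Xenopus skin one kind carries the anion exchanger slc4a1 while another carries the exchanger pendrin (slc26a4). Sodium enters such epithelia through ENaC, and the Na,K-ATPase, an alpha catalytic subunit with a beta subunit and often an FXYD protein, drives it out on the other side. Neural tissue uses other isoforms of the same families: the pump has isoforms typical of neurons and glia, and in mammals sodium-coupled bicarbonate carriers such as slc4a8 and slc4a10 set the pH of neurons.

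Library totals ran from 27265034 to 37985824 counts. The members took 0.193% to 0.404% of all counts in neurobots, 0.616% to 0.681% in biobots and 0.546% to 0.690% in sham neurobots. The summed level of 22 neuronal marker genes was 384 to 540 CPM (counts scaled to library size) in neurobots, 163 to 178 in biobots and 140 to 152 in sham neurobots. Of 21 tested in neurobots against biobots, 19 were higher and 1 lower, beside 19.5% of all genes higher. Only 6 of the 22 had enough counts to be tested in sham neurobots against biobots. Most therefore entered the test through their counts in neurobots, so the number of rises does not test the labels. NB1 and BB1 were submitted for sequencing before the other 10 pools and held more bots than the other pools of their type. Every neurobot pool also held more bots than any sham neurobot pool and than BB2, BB3 or BB4. Pool size and bot type therefore cannot be fully told apart. NB1 stood apart from NB2, NB3 and NB4 in many of the members below, so the counts of calls, and the ionocyte values that change most, are also given for the second submission alone. The second submission here means the 10 later pools. The paper describes these as a series of batches, so differences between batches among them were not separated. BB3 alone held globin RNA (hba3.L at 231 FPKM, at most 1.07 in any other library), and its slc4a1, which red blood cells also use, lay within the range of the other biobots. Nothing in the labels ties pools to separate clutches, so the p-values measure only the spread between these pools.

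Members were tested with edgeR's quasi-likelihood test on the counts, with adjusted p-values over all genes, and a gene is said to rise, fall or be called where the adjusted p was under 0.05. In neurobots against biobots, 79 members had enough counts to be tested and 44 were called (18 higher and 26 lower). Over all 24082 genes tested the calls were 31.8%, with 19.5% higher and 12.3% lower, so 55.7% of the tested members and 31.8% of all genes were called, and the excess lay on the lower side (32.9% of the members). The median log2 fold change was -0.50 in the members and 0.03 in all genes. Against sham neurobots, 81 were tested and 40 called (21 higher and 19 lower), beside 32.9% of all genes (19.6% higher, 13.2% lower), with medians of -0.51 and 0.01. Sham neurobots differed from biobots in 9 of 71 members (2 higher and 7 lower), beside 5.74% of all genes (3.55% higher, 2.19% lower). Neurobots were called higher than both other types in 16 members and lower than both in 16, of 79 tested against both, beside 15.8% and 7.97% of all genes. By non-overlap of the libraries, 17 members lay above and 25 below all biobots (33.7% of all genes did not overlap), and 20 lay above and 25 below all sham neurobots (35.2% of all genes). Both comparisons use the same neurobot libraries, so their values stand side by side and are not independent. Without NB1 and BB1, neurobots differed from biobots in 62 members (26 higher and 36 lower) and from sham neurobots in 63 (26 higher and 37 lower). These were 62 of 85 and 63 of 84 members tested, beside 45.7% of all genes (26.8% higher, 19.0% lower) and 43.1% (24.4% higher, 18.6% lower) in the same fits. Without BB1, sham neurobots differed from biobots in 14 of 72 members (3 higher and 11 lower), beside 7.39% of all genes higher and 4.97% lower.

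**Figure D1:**
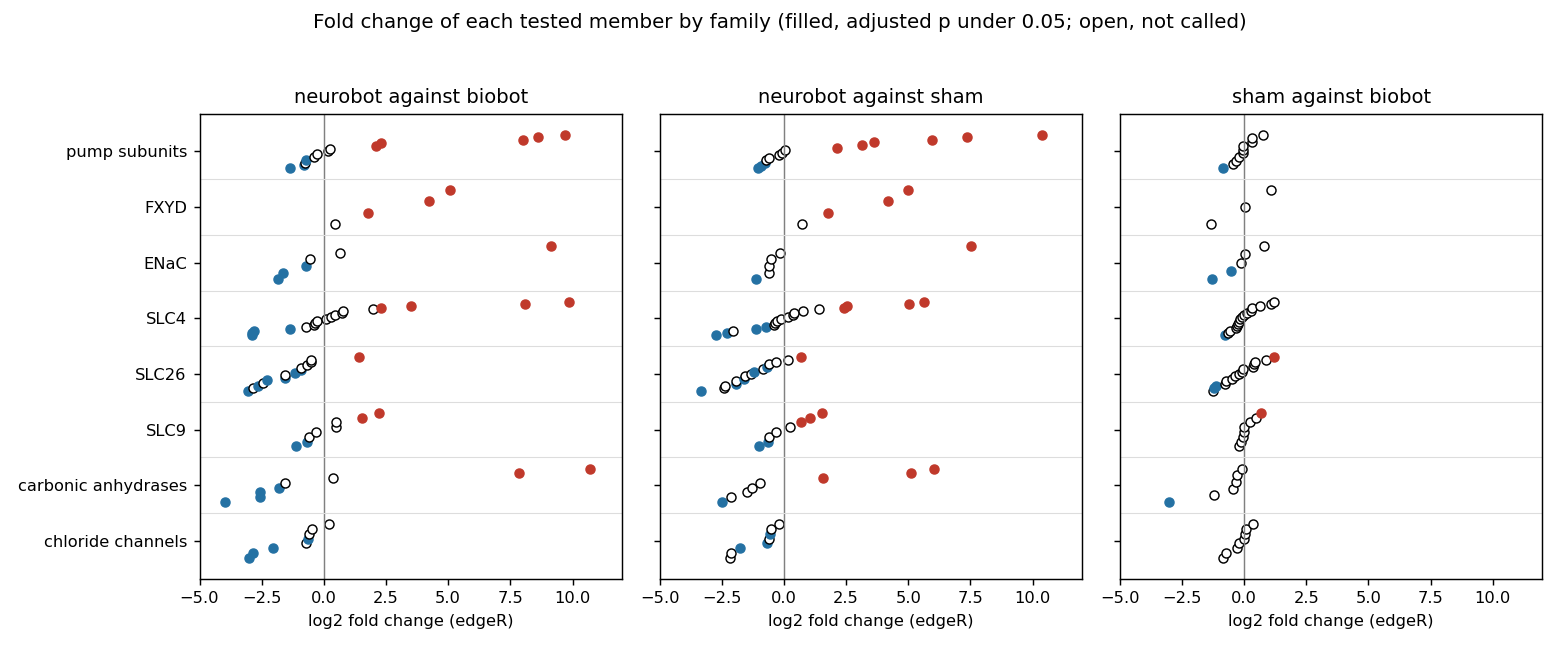
Log2 fold change (x axis) of every tested member, grouped by family (y axis), in the 3 comparisons. Each point is 1 gene, filled red where called higher, filled blue where called lower and open where not called. The pump, FXYD, SLC4 and carbonic anhydrase families hold genes far to the right, up to a fitted 10.72 for ca8.S in neurobots against biobots, where biobots had no count and the size depends on the prior count, while the chloride channels hold none that was called higher.

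The calls are given by 2 lists of the members' roles. Of 60 listed genes of ionocyte and epithelial transport, 36 were tested in neurobots against biobots and 16 fell while 3 rose (median log2 fold change -0.75). Against sham neurobots 11 of 37 fell and 4 rose (median -0.70). Over all genes tested, 12.3% fell and 19.5% rose against biobots, and 13.2% fell and 19.6% rose against sham neurobots. Of 26 listed neuronal and glial isoforms, 17 were tested against biobots and 10 rose while 1 fell (median 4.22), and against sham neurobots 12 of 18 rose and 1 fell (median 3.91). These medians stayed at 4.22 and 3.91 with the 6 and 2 genes near 0 in the other type set to their lower bound. Those bounds all lay above the medians, so this setting could not move them. In sham neurobots against biobots 5 of 37 genes of the first list (1 higher, 4 lower) and 0 of 9 of the second were called, beside 5.74% of all genes. Since only 9 of the second list had enough counts there, others entered the neurobot comparisons through their counts in neurobots. The rises of the second list are in part set by that. Without NB1 and BB1 the counts of the first list were 25 lower and 6 higher against biobots and 22 lower and 5 higher against sham neurobots, and those of the second were 15 higher and 1 lower, and 16 higher and 1 lower. The shares of all genes were also larger in these fits, with 19.0% lower and 26.8% higher against biobots and 18.6% lower and 24.4% higher against sham neurobots. Leaving out one library, the falls in the first list against biobots were 23 without NB1, 10 without BB3, 9 without NB2, NB3 or BB4 and 6 without NB4. Against sham neurobots they were 22 without NB1, 7 without NB4 or SH3 and 6 without SH4. For the fits against biobots with a single library left out, shares of all genes are not given here.

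The anion exchangers of ionocytes were far lower in most neurobots. For slc4a1.S (chromosome 9_10S, 4823083 to 4847013 of the version 10.1 assembly, as for all positions below), which encodes the exchanger AE1 that trades chloride for bicarbonate, FPKM (the level of a gene per unit of its length and of sequencing depth) were 24, 0.785, 2.92 and 4.14 in NB1 to NB4, 57.5, 66.6, 54.4 and 43.4 in BB1 to BB4 and 29.3, 30.1, 32 and 38.5 in SH1 to SH4. All neurobots lay below all biobots and all sham neurobots, and NB1 lay several-fold above the other neurobots. The fall against biobots passed the test (log2 fold change -2.81 ± 0.81 (SE), adjusted p = 0.0227) and that against sham neurobots did not (-2.07 ± 0.80, adjusted p = 0.0731). Its homeolog slc4a1.L had 5.78, 0.295, 1.26 and 1.52 FPKM in NB1 to NB4, 12.44 to 22 in biobots and 7.56 to 14 in sham neurobots and fell against both (-2.87 ± 0.69, adjusted p = 0.00887, and -2.30 ± 0.68, adjusted p = 0.0273). The exchanger slc4a9.L, AE4, known from the base-secreting intercalated cells of the mammalian kidney, followed with 13.4, 0.379, 0.81 and 1.51 FPKM in NB1 to NB4, 21.6, 29.5, 23.9 and 42.7 in BB1 to BB4 and 18, 21.9, 27.4 and 36.8 in SH1 to SH4. It also fell against both (-2.88 ± 0.92, adjusted p = 0.0353, and -2.73 ± 0.94, adjusted p = 0.0476), with no overlap between neurobots and the others.

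Pendrin genes showed the widest gap between NB1 and the other neurobots. The gene slc26a4.3.L lies in a tandem row with slc26a4.2.L, slc26a4.1.L and slc26a3.3.L (chromosome 3L, 82587419 to 82603226), and its homeolog in the matching row on chromosome 3S, but in both rows only the slc26a4.3 copy was well expressed: slc26a4.1 and slc26a4.2 stayed at or below 0.567 FPKM in every library. The level of slc26a4.3.L was 128, 3.91, 2.51 and 7.55 FPKM in NB1 to NB4, 109, 191, 213 and 252 in BB1 to BB4 and 89.7, 222, 187 and 214 in SH1 to SH4. NB1 thus lay above BB1 and SH1, while NB2, NB3 and NB4 lay at 1.31% to 3.95% of the biobot mean. With all libraries it was not called (-2.45 ± 1.08, adjusted p = 0.109, and -2.37 ± 1.11, adjusted p = 0.125), and in the second submission alone it was (log2 fold change -5.59, adjusted p = 1.99e-05, and -5.30, adjusted p = 5.55e-05). The S copy had 35.3, 1.57, 0.668 and 2.62 FPKM in neurobots, 44.1 to 89.4 in biobots and 28.9 to 60 in sham neurobots, with the same outcome for slc26a4.3.S (-2.87 ± 1.04, adjusted p = 0.0568 with all libraries, and -5.70, adjusted p = 2.66e-05 in the second submission). A further gene of this kind on chromosome 6L, slc26a4l.L, had 57.3, 5.61, 4.47 and 8.95 FPKM in neurobots, 54.1 to 129 in biobots and 29.8 to 70.2 in sham neurobots. It fell against biobots (-2.30 ± 0.75, adjusted p = 0.0383) although NB1 lay above BB1. The minor copy slc26a4.2.L fell against sham neurobots (-3.33 ± 0.92, adjusted p = 0.0201), at 0 to 0.101 FPKM against 0.16 to 0.567, and not without SH4 (-3.14, adjusted p = 0.0578).

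Carbonic anhydrase 2, the fast cytosolic enzyme that feeds both kinds of ionocyte, was among the most abundant members. The copy ca2.S had 135, 10.7, 8.17 and 15.2 FPKM in NB1 to NB4, 244, 239, 297 and 224 in BB1 to BB4 and 100.4, 255, 179.5 and 184 in SH1 to SH4, and ca2.L had 80.1, 9.16, 9.43 and 11.4 in NB1 to NB4, 131 to 208 in biobots and 102 to 197 in sham neurobots. NB2, NB3 and NB4 lay at 3.25% to 6.06% of the biobot mean for ca2.S and at 5.67% to 7.06% for ca2.L, and NB1 at 53.8% and 49.6%. Both fell against biobots (-2.58 ± 0.81, adjusted p = 0.0325 for ca2.S, and -2.56 ± 0.69, adjusted p = 0.0157 for ca2.L). Against sham neurobots ca2.L fell (-2.49 ± 0.71, adjusted p = 0.0226) and ca2.S did not pass (-2.12 ± 0.84, adjusted p = 0.0771). The membrane-bound enzyme ca12.L, which acts outside the cell, had 16.1, 2.03, 2.35 and 3.18 FPKM in neurobots, 12.6, 21.3, 26.4 and 21.5 in biobots and 8.78, 17.4, 19.7 and 18.6 in sham neurobots, so NB1 lay within the range of the other types. It fell against biobots (-1.81 ± 0.61, adjusted p = 0.0444) and was not called against sham neurobots (-1.49 ± 0.63, adjusted p = 0.0935).

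Chloride channels of the epidermis moved the same way. Values of ano1.L, the calcium-activated channel that in Xenopus skin marks small secretory cells as well, were 16.9, 0.914, 1.89 and 4.05 FPKM in NB1 to NB4, 33.2, 43.3, 28.2 and 85.1 in BB1 to BB4 and 18.8, 17.6, 32.5 and 35.3 in SH1 to SH4. It lay lower in every neurobot than in any other library. It fell against biobots (-3.01 ± 0.80, adjusted p = 0.0154) and missed the threshold against sham neurobots (adjusted p = 0.0518). The broadly used channel clcn2.L did not single out NB1: neurobots had 5.55, 1.64, 4.8 and 5.53 FPKM, biobots 16.3, 14.3, 16.8 and 24 and sham neurobots 18.1, 12.402, 14.6 and 13.1, and it fell against both (-2.03 ± 0.35, adjusted p = 0.00137, and -1.76 ± 0.34, adjusted p = 0.00351). CFTR, the chloride channel of mammalian airway, was nearly absent from all 3 types, with at most 8 counts of cftr.S and 7 of cftr.L in any library.

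The ionocyte falls were larger without NB1, and several of their calls depended on single libraries. Without the first submission the log2 fold changes against biobots were -4.41, adjusted p = 0.000227 for slc4a1.S, -4.10, adjusted p = 0.000292 for slc4a1.L, -5.18, adjusted p = 5.38e-05 for slc4a9.L, -4.52, adjusted p = 8.03e-06 for ca2.S, -4.14, adjusted p = 3.92e-06 for ca2.L, -3.23, adjusted p = 1.2e-05 for ca12.L, -4.10, adjusted p = 1.92e-05 for slc26a4l.L, -4.54, adjusted p = 0.000391 for ano1.L and -2.23, adjusted p = 0.00221 for clcn2.L. All 9 fell against sham neurobots there too, with ca2.S at -4.03, adjusted p = 4.78e-05, slc4a1.S at -3.67, adjusted p = 0.00037 and ano1.L at -3.55, adjusted p = 0.000625. The first submission holds only NB1 and BB1 and no sham neurobot pool, so it allows no test within it. Leaving out another library while keeping NB1 cost several calls against biobots: ca2.S was lost without any of the other 7 libraries (adjusted p up to 0.0941), ca12.L, slc4a9.L and slc26a4l.L without any of the others but BB1 (up to 0.124, 0.103 and 0.111), slc4a1.S without NB3 or NB4 (up to 0.0755), and ano1.L and ca2.L without NB4 (up to 0.0568 and 0.0505). Against sham neurobots slc4a9.L was lost without any library but NB1 (up to 0.103), slc4a1.L without NB3, NB4, SH3 or SH4 (up to 0.0672), and ca2.L without NB2, NB4 or SH4 (up to 0.0599). The calls of slc4a1.L against biobots and of clcn2.L against both held with every library left out in turn.

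Markers of the ionocyte itself moved with these carriers. The list held 17 genes, the copies of the transcription factors foxi1, foxi4.2, ubp1, dmrt2 and tfcp2l1 and of the proton pump subunits atp6v1b1, atp6v0d2, atp6v0a4, atp6v1c2 and atp6v1g3, none at 0 in every library. Its summed level was 1160 CPM in NB1, 78.5 in NB2, 124 in NB3 and 180.4 in NB4, beside 1953 to 2561 in biobots and 1321 to 2195 in sham neurobots. Of 16 tested, 14 fell against biobots and 10 against sham neurobots, and none rose. These falls were 87.5% and 62.5%, beside 12.3% and 13.2% of all genes called lower. Over the 15 with a biobot mean of at least 0.5 FPKM, NB1 lay at 23.9% to 67.2% of the biobot mean (median 51.2%) and the other neurobots at 1.18% to 48.4% (median 6.03%), with ubp1.S the highest. In RNA from whole bots, fewer cells of a type and less RNA per cell cannot be told apart, and the part of ionocyte number in these falls was not tested. Markers of goblet and small secretory cells, a list of 8 that includes ano1, also lay lower (5962 to 14937 CPM in neurobots, 18236 to 21169 in biobots and 11313 to 17641 in sham neurobots). For keratinocytes the ranges overlapped (8841 to 23873, 16052 to 22231, and 12387 to 18281), with NB1 above every biobot and every sham neurobot. The sums were 15832, 8841 and 10129 CPM in NB2, NB3 and NB4, below all biobots, and NB2 lay inside the range of sham neurobots. Of 7 keratinocyte markers tested against biobots, 2 rose and 0 fell, which is 28.6% called, beside 31.8% of all genes. Markers of multiciliated cells, a list of 14, summed to 279 to 488 CPM in neurobots, below the 511 to 647 of biobots and overlapping the 460 to 633 of sham neurobots. Of 12 tested, 3 fell against biobots while 1 rose. That is 33.3% called, beside 31.8% of all genes (12.3% lower). Against sham neurobots 5 of 12 fell and 1 rose, which is 50% called, beside 32.9% of all genes (13.2% lower).

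**Figure D2:**
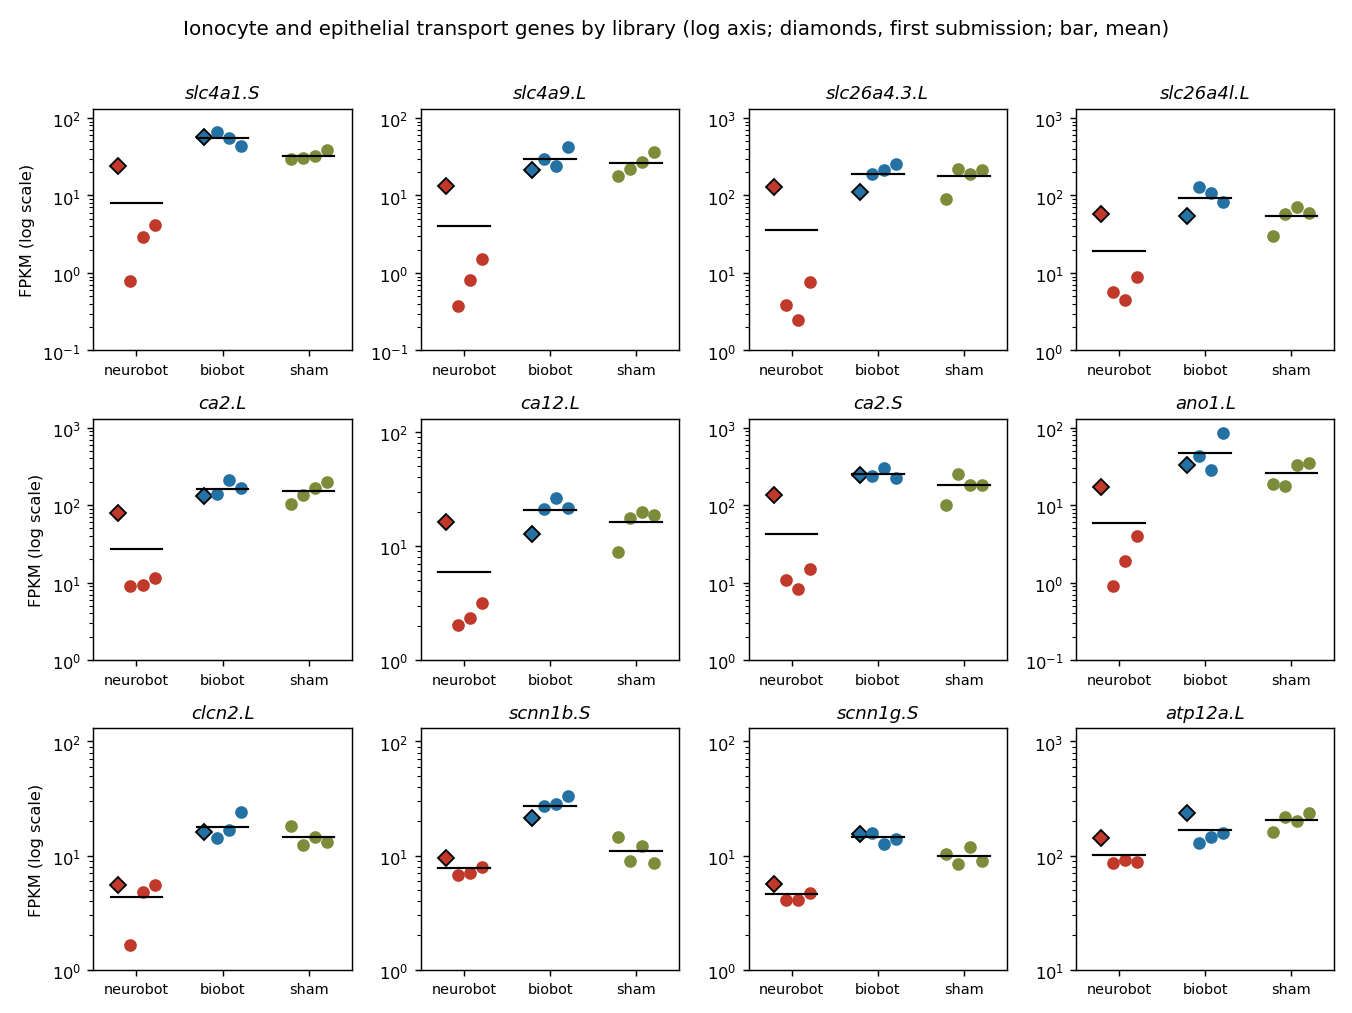
FPKM (log axis) of 12 ionocyte and epithelial transport genes in each library, with 4 neurobot, 4 biobot and 4 sham neurobot pools. Diamonds are NB1 and BB1 of the first submission, circles the second, and bars the group means. In slc26a4.3.L the NB1 diamond stands at 128 FPKM and the other neurobots at 2.51 to 7.55, while in scnn1g.S all 4 neurobots stand at 4.10 to 5.67.

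The beta and gamma genes of the sodium channel fell, with NB1 below every biobot. NB1 was the highest neurobot in the beta, gamma and alpha genes, and for the alpha genes it lay inside the biobot range. In Xenopus laevis ENaC transcripts came from the alpha genes of both homeologs and from the S copies of beta and gamma, which are neighbours on chromosome 9_10S. The L copies scnn1b.L and scnn1g.L, which lie together on chromosome 9_10L, had at most 7 and 19 counts in any library. The gamma subunit scnn1g.S had 5.67, 4.12, 4.1 and 4.69 FPKM in NB1 to NB4, 15.4, 15.8, 12.8 and 14.1 in BB1 to BB4 and 10.4, 8.49, 11.8 and 9.04 in SH1 to SH4. The 3 groups formed steps with no overlap, and each step passed the test (-1.66 ± 0.17, adjusted p = 6.95e-05 for neurobots against biobots, -1.13 ± 0.18, adjusted p = 0.000946 against sham neurobots, and -0.52 ± 0.14, adjusted p = 0.0471 for sham neurobots against biobots). The last step lost its call on leaving out SH1, SH3 or SH4, or any biobot library but BB1 (highest adjusted p = 0.137). The beta subunit scnn1b.S had 9.6, 6.72, 7.01 and 8.01 FPKM in neurobots, 21.5, 27, 28.1 and 33.4 in biobots and 14.4, 8.93, 12.1 and 8.68 in sham neurobots, so sham neurobots overlapped neurobots and lay below all biobots. It was lower than in biobots in both (-1.83 ± 0.19, adjusted p = 7.95e-05 in neurobots, and -1.29 ± 0.19, adjusted p = 0.00789 in sham neurobots), and neurobots and sham neurobots were not called different (-0.53 ± 0.21, adjusted p = 0.0747). The alpha subunit scnn1a.S, at 15 to 28.8 FPKM in neurobots, 27.3 to 44.5 in biobots and 26.1 to 31.5 in sham neurobots, was just called against biobots (-0.73 ± 0.25, adjusted p = 0.047), a call lost without any library but NB1 (up to 0.121). Its homeolog scnn1a.L was not called (-0.55 ± 0.24, adjusted p = 0.107). Both were highest in NB1 and BB1 of their groups (43.3 and 58.5 FPKM for scnn1a.L), and in the second submission both fell (-0.81, adjusted p = 0.0011, and -0.63, adjusted p = 0.013).

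Against this, the gene scnn1gl.L on chromosome 3L, named as gamma-like, was found almost only in neurobots. Its FPKM were 0.83, 1.24, 1.55 and 1.46 in NB1 to NB4, 0 in all biobots and 0 in SH1, SH2 and SH4, with 0.0198 in SH3. Neurobots were at least 21.7-fold higher than biobots and 23-fold higher than sham neurobots, taking 3 counts per library as the floor of the low group (adjusted p = 0.000126 and 5.64e-05).

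Other epithelial carriers also fell. The non-gastric proton pump alpha subunit atp12a.L, one of the most abundant members, had 142, 86.5, 91.2 and 88.6 FPKM in NB1 to NB4, 237, 128, 144 and 158 in BB1 to BB4 and 161, 216, 201 and 236 in SH1 to SH4. It fell against sham neurobots (-1.03 ± 0.24, adjusted p = 0.00785), and the call against biobots (-0.72 ± 0.25, adjusted p = 0.0499) was lost without NB2, NB3, NB4, BB1, BB3 or BB4 (up to 0.126). The sulfate transporter slc26a2.2.L had 14.6, 2.07, 2.02 and 2.13 FPKM in neurobots, 16.2, 42.7, 39.4 and 31 in biobots and 17, 17.5, 21.4 and 21.7 in sham neurobots, with NB1 again high, and fell against both (-2.65 ± 0.67, adjusted p = 0.012, and -1.94 ± 0.63, adjusted p = 0.0382), the latter lost without any library but NB1 (up to 0.0983). Its homeolog slc26a2.2.S, at 5.47, 0.547, 0.942 and 0.429 FPKM in neurobots and 8.85 to 20.1 in biobots, fell against biobots (-3.04 ± 0.74, adjusted p = 0.00961). A second sulfate transporter gene beside it on chromosome 3S, slc26a2.S, had 0.20 to 0.484 FPKM in neurobots, 0.586 to 0.988 in biobots and 0.723 to 1.53 in sham neurobots, and fell against sham neurobots (-1.60 ± 0.41, adjusted p = 0.014). A call against biobots (-1.17 ± 0.40, adjusted p = 0.0475) was lost without NB1, NB2 or any biobot library (up to 0.108). It was also lost without the first submission (-0.87, adjusted p = 0.0997). The anion carriers slc26a11.L (6.37 to 9.89 FPKM in neurobots, 14.3 to 15.2 in biobots, 11.2 to 14.4 in sham neurobots) and slc26a5.L, prestin, known from mammalian outer hair cells (2.34 to 4.85, 7.91 to 12.8 and 6.57 to 9.17), lay lower in all neurobots and fell against both types, with log2 fold changes of -0.90 and -1.58 against biobots. These calls held with any library left out. The reads of slc26a11.L are uncertain where it overlaps LOC121398195 (by 2650 bases) and sgsh.L (by 134 bases) on the other strand, since the libraries were not strand-specific.

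A carbonic anhydrase in no role list, ca7.S, separated biobots from both implanted types. This cytosolic enzyme, known from mammalian neurons, had 1.11, 2.61, 2.86 and 2.45 FPKM in BB1 to BB4, 0.31, 0.28, 0.275 and 0.239 in SH1 to SH4 and 0.19, 0.0218, 0.176 and 0.188 in NB1 to NB4. It fell in neurobots (-3.96 ± 0.57, adjusted p = 0.000446) and in sham neurobots (-3.0 ± 0.35, adjusted p = 0.003) against biobots, and neurobots and sham neurobots were not called different (-0.96 ± 0.55, adjusted p = 0.204). Both calls held with any library left out.

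In the other direction, the genes of the neuronal and glial list that rose against biobots did so from low levels. The list as a whole was not low in biobots. The 1 gene that fell, atp1b2.L, was the most abundant member there (mean 1276 FPKM), so its values do not mark it as neural here. Its list also held slc4a7.L, slc4a7.S and slc4a8.L, with biobot means of 3.99, 1.18 and 0.833 FPKM, which were not called. Markers of other neural cell types moved as well as those of neurons. Of 10 glial markers tested, 6 rose against biobots and 2 lay below all biobots without being called, and against sham neurobots 6 rose and 1 fell. Of the 15 listed, 6 had enough counts to be tested between sham neurobots and biobots, so some of the 10 entered through their counts in neurobots. Over all genes, 19.5% rose against biobots and 19.6% against sham neurobots, and 33.7% did not overlap between neurobots and biobots. The summed glial level was 2558 to 4246 CPM in neurobots and 1693 to 2461 in sham neurobots, and it overlapped the 1869 to 2844 of biobots, with BB1 above NB3 and NB4. Of 14 photoreceptor and retinal pigment epithelium markers, 9 were tested against biobots and all 9 rose. Only 5 had enough counts to be tested between sham neurobots and biobots. Some of the 9 therefore entered through their counts in neurobots, and their rise is in part set by that. The summed photoreceptor level was 45.7 CPM in NB1, 159 to 276 in the other neurobots and at most 9.97 elsewhere. The part of these cell types in the rise of the neural isoforms was not tested.

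Beta subunits of the sodium pump split by homeolog and by gene. The S copy of beta-2, atp1b2.S, had 1.97, 7.47, 8.08 and 8.7 FPKM in neurobots, at most 0.0456 in biobots and at most 0.145 in sham neurobots, at least 95.2-fold higher in neurobots than in biobots (adjusted p = 4.37e-05) and higher than in sham neurobots (7.35 ± 0.90, adjusted p = 0.000253). The L copy atp1b2.L was the most abundant member in every group and fell: it had 597, 519.5, 421 and 449 FPKM in NB1 to NB4, 1661, 973, 1111 and 1357 in BB1 to BB4 and 829, 969, 885 and 993 in SH1 to SH4. Neurobots lay below all others (-1.38 ± 0.22, adjusted p = 0.000939, and -0.93 ± 0.20, adjusted p = 0.00551). Beta-3 rose in both copies. The gene atp1b3.L had 53.7, 40.8, 27.9 and 28.5 FPKM in neurobots, 11.2, 6.64, 7.14 and 5.42 in biobots and 3.93, 4.44, 4.41 and 3.96 in sham neurobots, with NB1 the highest (2.30 ± 0.29, adjusted p = 0.000197, and 3.13 ± 0.24, adjusted p = 2.08e-05), and atp1b3.S had 15.3 to 22.2, 3.55 to 4.41 and 3.59 to 4.67 (2.10 ± 0.18, adjusted p = 2.26e-05, and 2.15 ± 0.18, adjusted p = 3.31e-05). The epithelial beta-1 gene atp1b1.L fell, at 9.66 to 12.1 FPKM in neurobots, 10.8 to 22.7 in biobots and 15.6 to 21.4 in sham neurobots (-0.74 ± 0.17, adjusted p = 0.00711 against sham neurobots). Its call against biobots (-0.78 ± 0.23, adjusted p = 0.0245) was lost without NB2, NB4, BB2, BB3 or BB4 (up to 0.0708), and its end overlaps nme7.L on the other strand. The calls of atp1b2.S, atp1b2.L and both atp1b3 genes held with any library left out.

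As a share of the summed beta FPKM, atp1b2.L took 83.7% to 84.6% in neurobots, 95.2% to 97.2% in biobots and 94.7% to 95.6% in sham neurobots, and atp1b3.L took 5.37% to 7.62% in neurobots and at most 0.658% elsewhere. Both shares set all 4 neurobots, NB1 included, apart from the other 8 libraries.

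**Figure D3:**
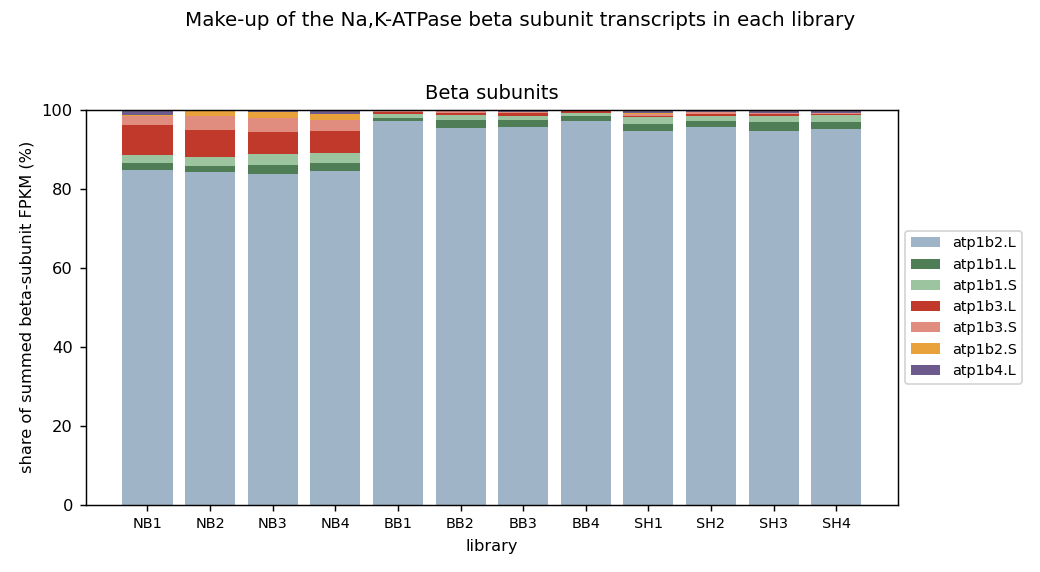
Share of each gene in the summed FPKM of the Na,K-ATPase beta subunits in each of the 12 libraries, as stacked bars from 0 to 100%. The gene atp1b2.L fills 83.7% to 84.6% of the bar in neurobots and 94.7% to 97.2% in the other libraries.

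FXYD proteins are small partners that tune the pump, and both copies of fxyd6, known from mammalian brain, rose. The gene fxyd6.L had 1.4, 3.97, 3.06 and 2.73 FPKM in NB1 to NB4, 0.13, 0.0326, 0.156 and 0 in BB1 to BB4 and 0.0354, 0.0687, 0.12 and 0.104 in SH1 to SH4. It was at least 25-fold higher than in sham neurobots (adjusted p = 9.7e-05) and higher than in biobots (5.08 ± 0.69, adjusted p = 0.000329). The gene fxyd6.S had 4.13 to 6.18 FPKM in neurobots, 0.0688 to 0.44 in biobots and 0.183 to 0.341 in sham neurobots and rose against both (4.22 ± 0.43, adjusted p = 6.95e-05, and 4.19 ± 0.27, adjusted p = 1.1e-05). Weaker were fxyd2.S, which rose against sham neurobots alone (1.77 ± 0.48, adjusted p = 0.0184, lost without SH4 at adjusted p = 0.0596), and fxyd1.L, which rose against biobots alone (1.79 ± 0.57, adjusted p = 0.0335, lost without NB1, BB2 or BB4 at up to 0.108). The difference between those comparisons was not tested, and fxyd1.L lies across lgi4.L on the other strand, so its reads are uncertain.

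Sodium-coupled bicarbonate carriers rose as well. The neuronal carrier slc4a10 was expressed from both homeologs: slc4a10.L had 0.15, 0.541, 0.478 and 0.53 FPKM in NB1 to NB4 and slc4a10.S 0.137, 0.28, 0.492 and 0.641, against at most 0.00428 and 0 in biobots and at most 0.0233 and 0.0447 in sham neurobots. They were at least 32.8-fold and 36.5-fold higher than in biobots (adjusted p = 6.1e-05 and 0.00032) and rose against sham neurobots (adjusted p = 0.000676 and 0.00563). Its relative slc4a8.S had 0.146, 0.494, 0.879 and 0.934 FPKM in neurobots, 0.0218 to 0.0741 in biobots and 0.0440 to 0.172 in sham neurobots, and rose against both (3.50 ± 0.62, adjusted p = 0.00154, and 2.4 ± 0.61, adjusted p = 0.0135), while the NB1 value lay inside the sham range. The L copy slc4a8.L, at 0.202 to 1.37 FPKM in neurobots and 0.596 to 1.06 in biobots, was not called (0.07 ± 0.49, adjusted p = 0.929). The carriers slc4a7.L and slc4a7.S, slc4a3.L and slc4a5.L were not called in any comparison, and slc4a7.S, at 0.582, 1.77, 2.67 and 2.82 FPKM in NB1 to NB4 and 0.873 to 1.68 in biobots, was called higher only without the first submission (1.22, adjusted p = 0.00277, and 0.71, adjusted p = 0.0148).

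Neural carbonic anhydrases completed the rise. The gene ca8.S, whose protein lacks enzyme activity and is abundant in mammalian cerebellum, had 1.11, 8.14, 4.06 and 4.13 FPKM in NB1 to NB4, 0 in all biobots and 0.318, 0.0964, 0 and 0.0583 in SH1 to SH4. It was at least 65.5-fold higher than in biobots (adjusted p = 0.000318) and rose against sham neurobots (5.12 ± 0.84, adjusted p = 0.00132). The membrane-bound enzyme ca14.S, known from mammalian brain and retina, had 2.28, 0.668, 0.976 and 1.43 FPKM in neurobots, at most 0.0177 in biobots and at most 0.0707 in sham neurobots, at least 27.9-fold higher than in biobots (adjusted p = 7.68e-05) and higher than in sham neurobots (6.03 ± 0.90, adjusted p = 0.000776). For ca14.S NB1 was the highest neurobot, and for ca8.S the lowest. The inactive relative ca10.L, at 0.286 to 0.414 FPKM in neurobots, 0.106 to 0.495 in biobots and 0.0561 to 0.211 in sham neurobots, rose against sham neurobots only (1.56 ± 0.43, adjusted p = 0.0201, and 0.35 ± 0.45, adjusted p = 0.591 against biobots). That call was lost without SH3 or SH4 (up to 0.0672).

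**Figure D4:**
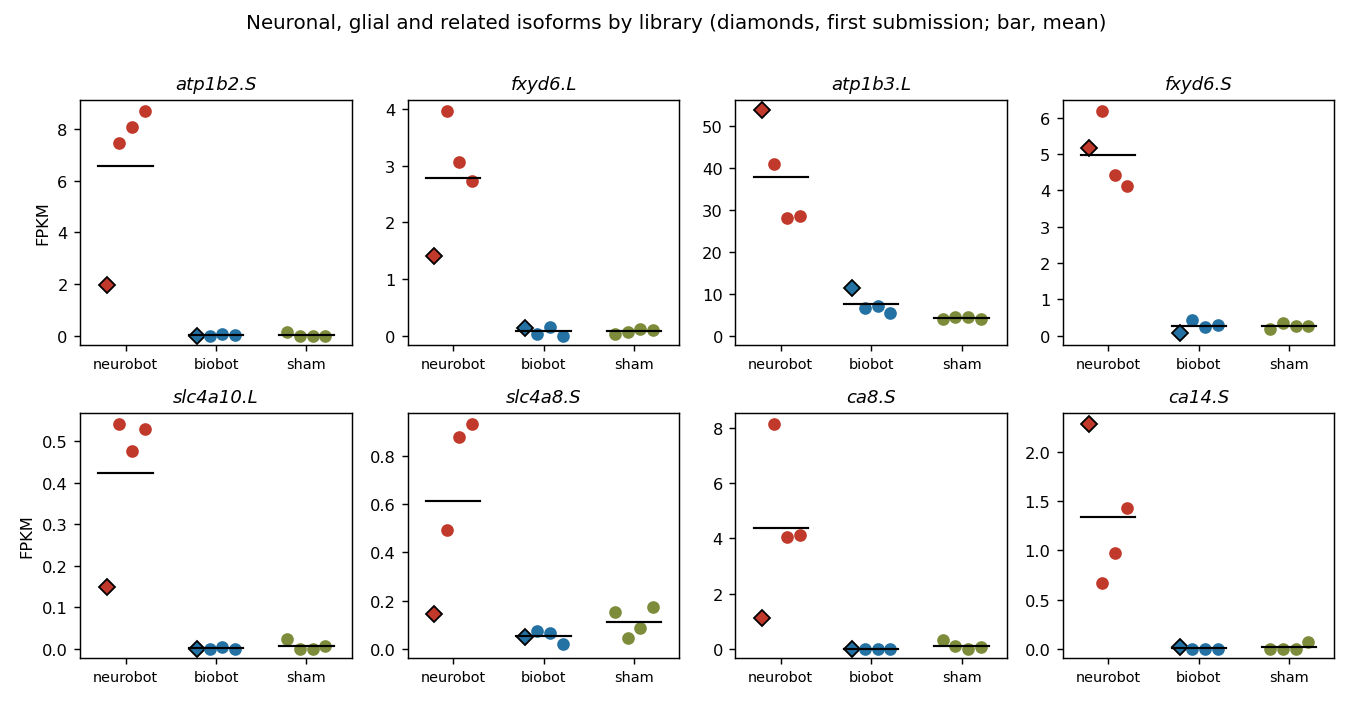
FPKM (linear axes, each panel with its own scale) of 8 neuronal, glial and related isoforms in each library. Diamonds are NB1 and BB1 of the first submission, circles the second, and bars the group means. For atp1b2.S the neurobots stand at 1.97 to 8.70 FPKM and all other libraries at or below 0.145, and the NB1 diamond is the lowest neurobot for 5 of the 8 genes and the highest for atp1b3.L and ca14.S.

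Homeologs went opposite ways in a pair of genes. In neurobots against biobots 24 pairs were tested in both copies, and of the 10 with both copies called 8 moved the same way. The exceptions were atp1b2, given above, and slc4a4, the electrogenic sodium bicarbonate carrier found in mammalian kidney, pancreas and glia. The L copy slc4a4.L (chromosome 1L, 86532823 to 86675304) had 0.375, 0.715, 0.794 and 0.825 FPKM in NB1 to NB4, 0.694, 1.61, 1.85 and 2.67 in BB1 to BB4 and 1.57, 0.804, 2.17 and 1.27 in SH1 to SH4. The S copy slc4a4.S (chromosome 1S, 70481573 to 70609442) had 3.41, 3.49, 4.43 and 4.36 FPKM in NB1 to NB4, 1.42, 0.485, 0.456 and 0.825 in BB1 to BB4 and 0.823, 0.567, 0.60 and 0.656 in SH1 to SH4. The L copy fell (-1.35 ± 0.39, adjusted p = 0.0217, and -1.14 ± 0.34, adjusted p = 0.0268) and the S copy rose (2.29 ± 0.35, adjusted p = 0.000592, and 2.53 ± 0.19, adjusted p = 2.08e-05). The L share of the summed slc4a4 FPKM was 14.5% ± 3.2 (SD, n = 4) in neurobots, 66.5% ± 22.5 in biobots, where BB1 alone lay at 32.8%, and 67.1% ± 8.2 in sham neurobots. The fall of slc4a4.L was lost against biobots without NB2 or BB4 (up to 0.0686) and against sham neurobots without NB2, SH1 or SH3 (up to 0.0811), whereas the rise of slc4a4.S held throughout. Against sham neurobots the same 2 pairs, of 9 with both copies called, went opposite ways. Homeologs can share reads, which limits how exactly their levels are separated. Among called members, slc4a10.S and ca10.L also overlap another gene on the other strand and slc4a11.L one on its own strand, so their reads are uncertain to that extent.

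**Figure D5:**
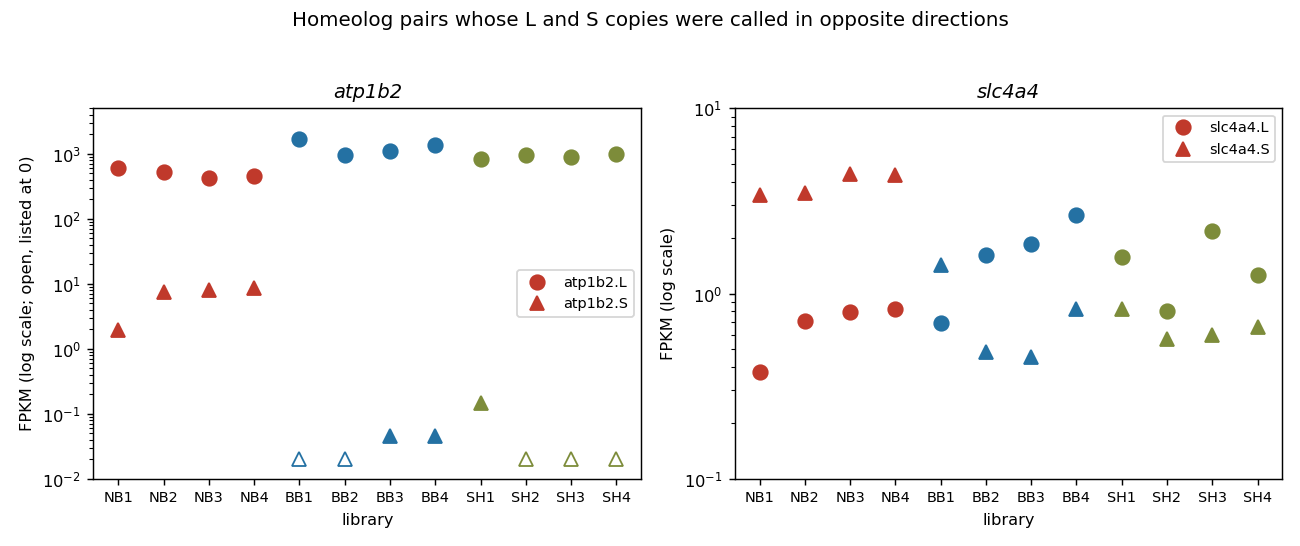
FPKM (log axis) of the L copy (circles) and S copy (triangles) of atp1b2 and slc4a4 in each library, red for neurobots, blue for biobots and green for sham neurobots, with open symbols for values listed at 0. For slc4a4 the S copy stands above the L copy in all 4 neurobots and in BB1, and below it in the other 7 libraries.

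Among exchangers of endosomes and lysosomes, 1 of 6 tested was called against biobots and 2 of 6 against sham neurobots. These were 16.7% and 33.3%, beside 31.8% and 32.9% of all genes. The epithelial proton exchanger slc9a3.L was not called in any comparison. Of 7 listed endosomal and lysosomal exchangers 6 were tested, with a median log2 fold change of -0.59 against both other types. Of these 6, 4 lay below all biobots and 3 below all sham neurobots. Over all genes, 33.7% and 35.2% did not overlap, in either direction. Against biobots only clcn3.L fell (-0.63 ± 0.15, adjusted p = 0.00753), with 13.4 to 15.6 FPKM in biobots and 8.24 to 10.5 in neurobots. Against sham neurobots clcn3.L (-0.67 ± 0.14, adjusted p = 0.00542) and clcn3.S (-0.58 ± 0.16, adjusted p = 0.0175) fell, the latter not without NB4 or SH4 (up to 0.0524). The other members of the list, clcn5.L, clcn6.L, clcn7.L and slc9a8.S, were not called in any comparison, and neither were the transporters slc26a7.L and slc4a11.S. Without NB1, 5 of the 7 then tested fell and 1 rose against biobots and 4 of 6 fell against sham neurobots, and without both NB1 and BB1 2 fell and 1 rose against biobots. Over all genes, 18.6% fell against sham neurobots without NB1, and 19.0% fell and 26.8% rose against biobots without both. The share against biobots without NB1 alone is not given here. The carrier slc4a11.L fell against sham neurobots (-0.72 ± 0.23, adjusted p = 0.0379, lost without NB3, NB4, SH1, SH3 or SH4 at up to 0.0843).

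The rule on names also took genes that carry no ions. The adaptor NHERF1, slc9a3r1, ties transporters to the cytoskeleton at the apical membrane. Its S copy had 15, 31.4, 26.6 and 23.6 FPKM in neurobots, 5.04, 4.91, 5.28 and 5.09 in biobots and 7.38, 8.3, 8.19 and 8.66 in sham neurobots and rose against both (2.23 ± 0.22, adjusted p = 5.92e-05, and 1.53 ± 0.22, adjusted p = 0.000577), as did slc9a3r1.L (1.54 and 1.06 on the log2 scale). The related adaptor NHERF2 went down: slc9a3r2.L had 1.22 to 1.87 FPKM in neurobots, 3.04 to 3.93 in biobots and 3.04 to 3.44 in sham neurobots (-1.10 ± 0.22, adjusted p = 0.0028, and -1.0 ± 0.20, adjusted p = 0.00362), and slc9a3r2.S fell as well (-0.67 ± 0.20, adjusted p = 0.0256, and -0.63 ± 0.19, adjusted p = 0.0299). The slc9a3r2.S calls were lost without NB2, NB3, NB4, BB1, BB3 or BB4 against biobots (up to 0.0623) and without NB2, NB3, NB4, SH1 or SH4 against sham neurobots (up to 0.0808). The gene slc4a1ap, matched by name alone, was not called in either copy.

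Sham neurobots against biobots ask what an implant of cells does without the neural fate. Beside ca7.S, scnn1b.S and scnn1g.S, given above, sham neurobots were lower in 4 members. The anion exchanger slc26a6 had 4.44, 3.46, 4.16 and 4.68 FPKM in SH1 to SH4, 11.5, 8.66, 8.28 and 10.5 in BB1 to BB4 and 9.4, 6.6, 5.84 and 5.76 in NB1 to NB4. Sham neurobots lay below all biobots (-1.19 ± 0.15, adjusted p = 0.0046) and also below all neurobots (0.68 ± 0.20, adjusted p = 0.0257 for neurobots against sham neurobots, lost without SH1, SH2 or SH3 at up to 0.0727), and neurobots and biobots were not called different (-0.51 ± 0.20, adjusted p = 0.0798). Lower too were slc26a2.2.S (4.98 to 8.58 against 8.85 to 20.1 FPKM, -1.11 ± 0.25, adjusted p = 0.0295), slc4a1.S (29.3 to 38.5 against 43.4 to 66.6, -0.75 ± 0.16, adjusted p = 0.0247) and atp1b3.L (3.93 to 4.44 against 5.42 to 11.2, -0.84 ± 0.21, adjusted p = 0.042). Higher were slc26a9.L, a chloride carrier of epithelia (0.906, 0.632, 0.705 and 0.947 against 0.399, 0.284, 0.311 and 0.40, 1.22 ± 0.25, adjusted p = 0.0241), and slc9a3r1.S (7.38 to 8.66 against 4.91 to 5.28, 0.70 ± 0.12, adjusted p = 0.013). The gene slc26a9.L also rose in neurobots against biobots (1.40 ± 0.42, adjusted p = 0.0278, lost without NB3, NB4, BB2, BB3 or BB4 at up to 0.0888), with NB1 at 0.359 FPKM inside the biobot range and the others at 0.761 to 1.34, and its reads are uncertain where it overlaps another gene on the other strand.

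Of the 9 calls between sham neurobots and biobots, 6 were lost on leaving out some library. Those of ca7.S, scnn1b.S and slc26a6 held with any library left out. The calls of slc26a2.2.S and slc26a9.L were lost without SH1, SH3, SH4, BB2, BB3 or BB4 (up to 0.0831 and 0.0872), atp1b3.L without SH1, SH3, SH4, BB2 or BB3 (up to 0.122), slc4a1.S without SH1, SH3, BB2 or BB3 (up to 0.0723) and slc9a3r1.S without SH4 (0.0584). Without BB1, the only library of the first submission in this comparison, 14 members were called (3 higher and 11 lower) in place of 9.

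Other genes of sodium, chloride and acid-base handling, a list of 60 outside the members, were called about as often as all genes against biobots. Against biobots 46 were tested, with 6 higher and 9 lower (32.6% called, beside 31.8% of all genes, median log2 fold change -0.27). Against sham neurobots 7 were higher and 15 lower of 46 (47.8%, beside 32.9%), and between sham neurobots and biobots 1 of 42 was called (2.38%, beside 5.74%). The chloride extruder of mature neurons, slc12a5.L (KCC2), had 0.136 to 0.714 FPKM in neurobots, 0.0290 to 0.0695 in biobots and 0.0673 to 0.154 in sham neurobots, which NB2 overlapped, and rose against both (3.20 ± 0.60, adjusted p = 0.00216, and 2.03 ± 0.55, adjusted p = 0.0181). The water and glycerol channel aqp3.S had 32.4, 90.5, 92.7 and 70.2 FPKM in neurobots and 2.02 to 7.43 in biobots (4.29 ± 0.50, adjusted p = 0.000137). Partners of the ionocyte carriers were lower: barttin, a chloride channel subunit encoded by bsnd.S, had 4.23, 0.562, 0.60 and 0.785 FPKM in neurobots, 7.17 to 11.8 in biobots and 3.2 to 7.06 in sham neurobots (-2.69 ± 0.62, adjusted p = 0.00708, and -1.85 ± 0.64, adjusted p = 0.0471), and the ammonia channel rhcg.L had 38.7 to 47, 60.8 to 100.5 and 65.5 to 100.05 (-0.94 ± 0.19, adjusted p = 0.00306, and -0.96 ± 0.18, adjusted p = 0.00294). The ubiquitin ligase nedd4l.L, which removes ENaC from the membrane, fell as well (-1.19 ± 0.30, adjusted p = 0.012, and -1.03 ± 0.29, adjusted p = 0.0228). The kinase sgk1.L, which acts against nedd4l, was not called, and its highest values were 155 FPKM in NB1 and 210.2 in BB1, beside 44 to 84.8 in the other 10 libraries.

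Of the 120 members 39 were tested in no comparison, with at most 38 counts in any library, and 5 of these had no count at all. Among them were both cftr copies, atp4a.S and both atp4b copies of the gastric proton pump, the kidney and muscle type genes slc26a1 and clcn1, and ca9.L, none of which can be said to be absent at this depth. Although of kidney type, slc26a1 was counted in the list of neuronal and glial isoforms. Of the 16 members that fell against both other types, 9 were in the list of ionocyte and epithelial transport (slc4a1.L, slc4a9.L, slc4a4.L, ca2.L, clcn2.L, atp12a.L, atp1b1.L, scnn1g.S and slc26a11.L), and of the 16 that rose against both, 10 were neuronal and glial isoforms. These lists held 36 and 17 of the 79 members tested against biobots. In 20 of the 26 members that fell against biobots NB1 was the highest neurobot, and in 12 of the 18 that rose it was the lowest. Whether this belongs to the submission, to the number of bots pooled or to the bots themselves cannot be told apart, since NB1 is the only neurobot library of its submission.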

How the data were processed

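Polyadenylated RNA of pooled bots was made into non-directional libraries and sequenced by the authors. They aligned reads to the Xenopus laevis 10.1 assembly with HISAT2 (2.0.5), and the deposited counts are whole reads per gene from featureCounts (1.5.0-p3). The deposited FPKM values are the authors' counts divided by gene length and by library sizes scaled with DESeq2 (1.20.0) size factors, and a recalculation from the counts differed by at most 5.13e-15 of the value. FPKM served for levels and shares and counts for tests. The whole table was fitted for each comparison of 8 libraries with edgeR (4.0.16, R 4.3.3) after TMM scaling, with a filter on low counts (filterByExpr, minimum count 10, minimum total 15), a robust quasi-likelihood test (two-sided) and Benjamini-Hochberg adjustment over all genes, threshold 0.05. FPKM keeps a fixed gene length, so levels are compared between genes only on that scale. Where a group was near 0, a lower bound of the fold was set with 3 counts per library. Positions and overlaps come from the columns of the count table.

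Alternatives were DESeq2 (1.42.0) and its size factors, limma (3.58.1) on log2(FPKM + 1), no filter, library size alone, a fold of at least 2, all 12 libraries in one fit, each library left out, a replicate block, the submission as a term, and the fit without the first submission. On simulated counts with 200 changed genes edgeR recovered 89.5% for neurobots against biobots (23719 genes), 90.5% for neurobots against sham neurobots (24212 genes) and 97% for sham neurobots against biobots (22412 genes). False calls were 6, 10 and 11. The changes were planted at a single size above 2-fold, in genes with many counts, and no library was set apart. These shares therefore do not apply to smaller changes, to genes of low counts or to calls that depend on NB1. The members and all gene and marker lists were chosen with earlier results of these data known. Genes were named by their role list, by the up to 5 largest changes in each direction of each comparison among members whose groups do not overlap, and as the 10 members of highest mean FPKM, and any other gene named was chosen after its values were seen. Some members enter the counts over all members and lists but are not reported here by name. Counting intervals are not given, since the spread between pools sets the error.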

Additional observations from a re-analysis of the deposited data

Results flagged for a closer look

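In 24 of 193 groups of 4 libraries, 1 library stood farther from the others than Dixon's 95% limit allows, where chance gives 9.65 if groups are independent. They are not independent, since many of the 24 share NB1. Where the other 3 libraries had 0, any count passes the limit. The 9.65 is therefore only a rough guide. Values are CPM of the lone library, with the range of the other 3 of its group for the widest gaps. NB1 was high in 13 genes: slc26a4.3.L (359, others 7.02 to 21.3), slc26a4.3.S (128), slc26a4l.L (192, others 14.9 to 30.0), ca2.L (176), ca2.S (282, others 17.0 to 31.8), ca12.L (29.8), slc4a1.S (100), slc4a9.L (46.0), slc26a2.2.L (36.2), slc26a2.2.S (13), scnn1a.S (86.6), atp12a.L (524) and fxyd1.L (1.75). It was low in slc4a10.L (1.16, others 3.69 to 4.12). NB2 was low in ca7.S (0.0288).

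BB1, the biobot pool of the first submission, was high in clcn7.L (33.9), scnn1a.S (135) and slc9a3.L (5.51). SH1 was low in slc26a4.3.S (105, others 218 to 224) and high in atp1b3.S (11), slc4a10.S (0.424) and atp1b2.S (0.212). SH4 was high in atp1b1.S (40.7) and ca14.S (0.151). Of the 24, 17 came from NB1 or BB1.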

How the results depend on the processing

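No called fold change of a named member reversed under any alternative run. Of 82 such calls, 81 remained with DESeq2, 81 with DESeq2 size factors, 80 with limma and 76 with all 12 libraries in one fit. With no filter 71 remained, and 70 with library size alone. All 82 remained without the first submission, and 50 remained in every fit with one library left out. The 82 leave out genes that were chosen after their values were seen. Of those, slc26a2.S lost its call against biobots in the edgeR fit without the first submission (-0.87, adjusted p = 0.0997). Of 92 fold changes under 2-fold and not called, 88 of 1495 alternative values took the other sign, and 0 of those were called (edgeR). With one library left out, members called ranged in neurobots against biobots from 17 to 23 higher and from 14 to 37 lower (31 to 60 in all), in neurobots against sham neurobots from 20 to 26 higher and from 11 to 37 lower (32 to 63), and in sham neurobots against biobots from 0 to 3 higher and from 3 to 11 lower (4 to 14).

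In neurobots against sham neurobots limma called 30 members lower in place of 19, and without the first submission 63 were called, 37 of them lower. In sham neurobots against biobots all 12 libraries in one fit called 3 (0 higher and 3 lower), library size alone 4 lower, a fold of at least 2 left 5, and without the first submission 14 were called, 11 of them lower. The DESeq2 test called 56 (26 higher, 30 lower), 53 (29 and 24) and 13 (3 and 10) in the 3 comparisons. The cause of these shifts was not tested.

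With the replicate block 48 members were called in neurobots against biobots (17 higher, 31 lower), 47 in neurobots against sham neurobots (21 and 26) and 7 in sham neurobots against biobots (2 and 5). Libraries with the same number share only that number: their deviations correlated between -0.33 and 0.36, and 3 of 8, 3 of 8 and 2 of 8 libraries correlated best with their own number. For the 39 members tested in no comparison, with at most 38 counts in any library, differences were not detectable at this depth.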
